A study of Homo sapiens with 14 samples.

Results

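The genes described are the heat shock proteins, their J-domain partners, the BAG co-chaperones and 2 heat shock factors. Members were the protein-coding genes whose symbols start with HSPA, HSPB, HSPD, HSPE, HSPH, HSP90, DNAJA, DNAJB, DNAJC or BAG, together with HSF1 and HSF2. The rule found 83 genes among 39293 identifiers, of which 19242 were protein-coding. By textbook location, 48 members work in the cytosol or nucleus, 15 in the endoplasmic reticulum (ER) and 10 in mitochondria, and 10 were set apart as other or unsure. After the filter on low counts, 65 of the 83 were tested.

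RNA was sequenced from MOLM14, a human acute myeloid leukaemia line that carries an internal tandem duplication in the FLT3 receptor gene, in 14 libraries. FGF2 early flasks (n = 4) and FL early flasks (n = 4) were gilteritinib-resistant lines kept with 10 ng/mL of the growth factor FGF2 or of FL, the ligand of FLT3. Gilteritinib, an inhibitor of FLT3, was given to both kinds of flask at 100 nM for 48 hours. Parental cells (n = 3) were not treated, and the acute arm (n = 3) held parental cells given 100 nM for 48 hours, in 1 library each with drug alone, with FGF2 and with FL, both at 10 ng/mL. All arms come from 1 cell line. The labels give each early library a flask of its own, and the 3 acute libraries differ in what was added, so their spread holds ligand differences too. For the 3 parental libraries no label speaks of separate cultures, so the spread among them, which enters the p-values, may be technical.

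Chaperones bind proteins that are not yet folded, or have lost their fold, and release them in cycles driven by ATP. J-domain proteins bring such clients to HSP70 (the HSPA genes) and start its ATP hydrolysis, nucleotide exchange factors such as HSPH1 and the BAG proteins let the client go, and HSP90 finishes the folding of many kinases, mutant FLT3 among them. Each compartment has its own set: HSPA8 and HSP90AA1 in the cytosol, HSPA5 and HSP90B1 in the ER, and HSPA9 with the HSPD1 and HSPE1 folding cage in mitochondria. The factor HSF1 switches on the cytosolic and mitochondrial set, and the unfolded protein response switches on the ER set.

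Total counts ran from 25723575 to 33075041 a library. The 8 myeloid markers each reached at least 1 CPM (counts scaled to library size) in every library, and of 13 markers of T, B, erythroid, epithelial and fibroblast cells, 10 stayed under 1 CPM in every library, and CD2, HBB and KRT19 were among those at 0. Summed over a library, those 13 reached 0.867 to 3.35 CPM. The summed myeloid markers were at 1564 to 2055 CPM in the acute libraries, 1359 to 2223 in FL early, 912 to 992 in FGF2 early and 975 to 984 in parental ones. Single markers differed in direction: MPO was at 58.5 to 77.3 CPM in parental, 4.73 to 5.21 in acute and 169 to 698 in FL early libraries, and CSF1R at 12.7 to 13.5, 117 to 196 and 6.88 to 21.9 CPM in the same order. FL early replicates 1 and 4 stood apart from the other FL early flasks: pairs that hold either of them differed by a mean chi-square per gene of 41.6 to 56, and replicates 2 and 3 by 15.5. Ribosomal protein genes held 16.6% to 20.0% of the counts in the acute libraries and 10.9% to 13.2% in the others, and a scaling without them is given beside the acute counts. The part of the myeloid marker shift in the results was not tested.

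The promoters of members that the results turn on are given first, since they show the 2 control elements of the family. RefSeq promoter windows (GRCh38.p14) of 300 bases, from 250 before to 50 after a start, were matched by symbol for 73 of the 83 members. The heat shock element, searched on both strands as GAA, any 2 bases, TTC, any 2 bases and GAA, was in 7 of these 73 genes (9.59%) and in 166 of all 27305 genes with a window (0.608%). Counted by window, it was in 7 of 96 member windows (7.29%) and in 172 of 35116 windows in all (0.490%). The 7 were HSPA8, HSP90AB1, HSP90AA1, HSPD1, HSPA6, DNAJA1 and DNAJB6, none of them an ER member. The ER stress element, searched on both strands as CCAAT, any 9 bases and CCACG, was in HSPA5 and HSP90B1. That is 2 of the 73 members (2.74%), against 25 of all 27305 genes (0.0916%). Both are among the 13 ER members with a window (15.4% of these). The 250 bases before the start follow for 7 members, 5′ to 3′ on the strand of the gene, with matches in capitals; the 2 matches in HSPD1 overlap each other.
HSPA8, chr11:123062137-123062386, minus strand, 2 heat shock elements: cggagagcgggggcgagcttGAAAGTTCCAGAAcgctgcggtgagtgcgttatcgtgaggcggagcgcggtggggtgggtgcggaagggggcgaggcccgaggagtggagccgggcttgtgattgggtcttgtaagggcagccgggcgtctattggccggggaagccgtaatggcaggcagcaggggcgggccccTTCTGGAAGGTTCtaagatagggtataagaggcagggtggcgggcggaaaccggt
HSP90AB1, chr6:44247693-44247942, plus strand, 2 heat shock elements: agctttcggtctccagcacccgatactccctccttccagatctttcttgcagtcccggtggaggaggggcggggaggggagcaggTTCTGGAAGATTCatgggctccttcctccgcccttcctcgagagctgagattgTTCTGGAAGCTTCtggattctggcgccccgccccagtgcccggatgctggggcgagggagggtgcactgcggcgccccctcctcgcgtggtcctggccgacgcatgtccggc
HSP90AA1, chr14:102087045-102087294, minus strand, 1 heat shock element: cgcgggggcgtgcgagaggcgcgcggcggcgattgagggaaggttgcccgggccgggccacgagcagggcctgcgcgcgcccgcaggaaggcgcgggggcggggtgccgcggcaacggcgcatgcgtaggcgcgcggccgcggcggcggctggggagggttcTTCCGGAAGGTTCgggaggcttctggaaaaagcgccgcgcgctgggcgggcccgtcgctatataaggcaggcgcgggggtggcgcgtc
HSPD1, chr2:197499841-197500090, minus strand, 2 heat shock elements: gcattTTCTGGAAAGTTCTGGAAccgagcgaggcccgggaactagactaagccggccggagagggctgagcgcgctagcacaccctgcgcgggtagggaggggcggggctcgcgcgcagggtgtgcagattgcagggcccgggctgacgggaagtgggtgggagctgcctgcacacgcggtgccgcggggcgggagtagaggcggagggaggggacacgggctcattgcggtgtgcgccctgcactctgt
HSPA6, chr1:161524290-161524539, plus strand, 1 heat shock element: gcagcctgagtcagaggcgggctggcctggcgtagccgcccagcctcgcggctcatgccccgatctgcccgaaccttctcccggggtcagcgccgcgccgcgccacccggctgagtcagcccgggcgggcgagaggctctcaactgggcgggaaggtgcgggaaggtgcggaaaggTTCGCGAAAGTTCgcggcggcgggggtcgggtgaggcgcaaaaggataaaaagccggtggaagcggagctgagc
HSPA5, chr9:125241344-125241593, minus strand, 1 ER stress element: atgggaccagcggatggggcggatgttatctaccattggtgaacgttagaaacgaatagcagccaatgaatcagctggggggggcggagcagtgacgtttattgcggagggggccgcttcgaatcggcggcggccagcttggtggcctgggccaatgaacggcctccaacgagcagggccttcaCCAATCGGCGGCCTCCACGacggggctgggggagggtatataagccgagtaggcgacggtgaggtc
HSP90B1, chr12:103930160-103930409, plus strand, 2 ER stress elements: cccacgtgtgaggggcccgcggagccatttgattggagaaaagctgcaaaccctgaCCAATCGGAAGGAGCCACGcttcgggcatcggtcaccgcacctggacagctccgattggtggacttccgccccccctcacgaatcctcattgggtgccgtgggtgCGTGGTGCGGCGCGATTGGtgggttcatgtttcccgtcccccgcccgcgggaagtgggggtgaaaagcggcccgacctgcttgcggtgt

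The members held a smaller share of the transcriptome in acutely treated cells than in any other arm. The 83 members together held 1.51% to 1.56% of all counts in parental libraries and 0.458% to 0.532% in acute ones. In the early flasks they held 1.21% to 1.30% with FGF2 and 1.14% to 1.35% with FL, below every parental library and above every acute one. Cytosolic members went from 1.07% to 1.10% in parental to 0.264% to 0.322% in acute libraries, mitochondrial ones from 0.221% to 0.236% down to 0.0606% to 0.0786%, and ER ones from 0.195% to 0.204% down to 0.106% to 0.110%. In bulk RNA, fewer cells holding a transcript and less of it in each cell cannot be told apart.

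**Figure D1:**
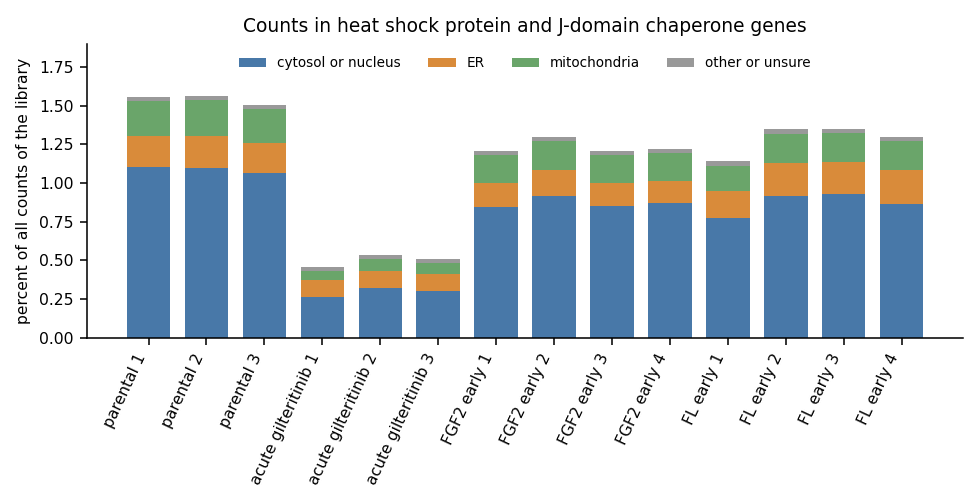
Percent of all counts of each library (vertical axis) that fell in the 83 members, stacked by compartment, for the 14 libraries. The 3 acute libraries reach 0.458% to 0.532%, the 8 early ones 1.14% to 1.35% and the 3 parental ones 1.51% to 1.56%.

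Per kilobase of transcript, the leading members of untreated cells were the cytosolic HSP90 and HSP70 genes. HSP90AB1 stood at 1379.6 ± 25.5 CPM per kb in parental libraries (mean ± SD, n = 3), HSPA8 at 1186 ± 37.9, HSP90AA1 at 624 ± 31.4, HSPD1 at 507 ± 22.4 and HSP90B1 at 379 ± 18.7. These neighbours in the order did not overlap between libraries. In acute libraries HSP90AB1 still led at 312 ± 104 CPM per kb, followed by HSP90B1 at 165 ± 18.7, HSPA8 at 119.8 ± 30.4, HSP90AA1 at 113 ± 9.15 and HSPD1 at 97.3 ± 23.7, and from HSP90B1 down each neighbour in this order overlapped the next. HSPA8, HSP90AA1 and HSP90AB1 alone held 53.0% to 53.5% of the members' counts in parental libraries, 47.4% to 50.9% in early ones and 25.4% to 32.7% in acute ones. These genes, HSPD1, HSPE1 and DNAJA1 have processed pseudogenes in the genome that can share reads with them, so their levels carry that uncertainty.

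Against untreated parental cells, 41 of 65 tested members were lower and 9 higher in the acute arm, where 30.3% of all 15756 genes tested were lower and 32.3% higher. The median log2 fold change was -0.73 over the members and 0.07 over all genes. Cytosolic members were lower in 23 of 35 cases and higher in 3, with a median of -0.89. ER members were lower in 9 of 14 and higher in 2 (median -0.69), and mitochondrial members lower in 7 of 10 and higher in 2 (median -0.76). With ribosomal protein and mitochondrial DNA genes left out of the scaling, an alternative added after the data were seen, 42 members were lower and 8 higher. Under upper quartile scaling the median of all genes moved up by 0.11 and 41 members were lower and 11 higher. The shares over all genes under these scalings are not given.

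**Figure D2:**
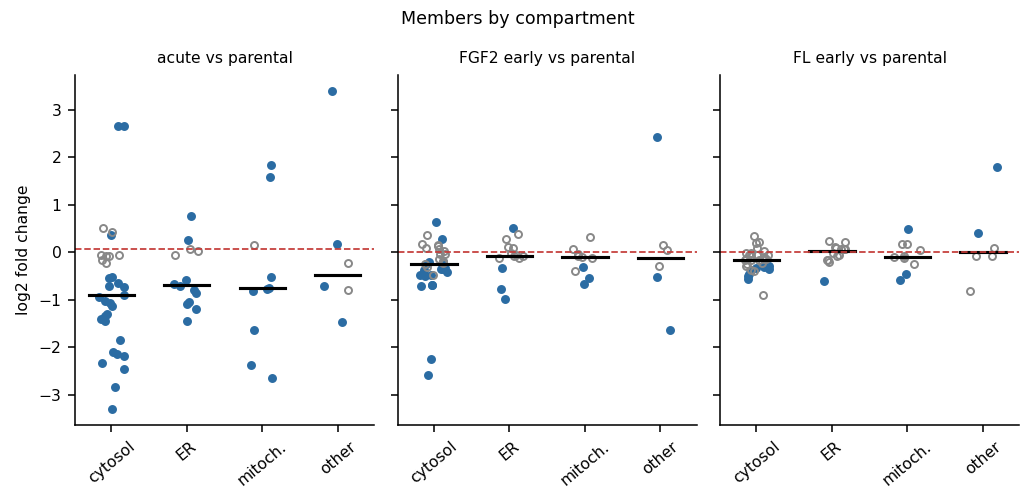
Log2 fold change (vertical axis) of tested members by compartment in 3 comparisons that share the parental libraries. Filled points passed an adjusted p of 0.05, open points did not, black bars are compartment medians (-0.89, -0.69 and -0.76 for cytosol, ER and mitochondria in the acute arm) and dashed lines the median of all genes. HSPA1B and HSPB6, with values near 0 CPM, are not drawn but enter the cytosolic median.

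The constitutive cytosolic HSP70, HSPA8, fell furthest among members at 1 CPM or more. It stood at 2753, 2813 and 2641 CPM in parental libraries and at 200.2, 339 and 289.8 CPM in the acute libraries with drug alone, with FGF2 and with FL. This was 9.90-fold lower (log2 fold change -3.31 ± 0.16, with the standard error here and below, adjusted p = 5.07e-10), and the acute libraries lay far below every parental one. HSPH1, the HSP110 nucleotide exchange factor of HSPA8, went from 439, 476 and 424 CPM to 60.3, 62.2 and 65.7 CPM, 7.12-fold lower (-2.83 ± 0.12, adjusted p = 1.88e-10). Its 3 acute values lay closer together than those of HSPA8. Its relative HSPA4L fell from 29.6 ± 2.03 to 5.87 ± 0.588 CPM (-2.33 ± 0.13, adjusted p = 2.22e-09), and HSPA4 fell from 246 ± 14.7 to 96.9 ± 15.3 CPM (-1.34 ± 0.11).

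Both cytosolic HSP90 genes fell. The stress-inducible HSP90AA1 was at 2169, 2167 and 1985 CPM in parental and 360.4, 417 and 367 CPM in acute libraries, 5.53-fold lower (log2 fold change -2.47 ± 0.09, adjusted p = 3.44e-11). The constitutive HSP90AB1 was at 3674, 3600.2 and 3541 CPM and 524, 1062 and 861 CPM, 4.42-fold lower (-2.14 ± 0.18, adjusted p = 1.70e-07). Neither gene overlapped between the arms. For HSP90AB1 the library with drug alone was the lowest of the 14.

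All 4 tested DNAJA members, the class A J-domain proteins, were lower in the acute arm. The counts by family here stand beside 30.3% of all genes tested that were lower and 32.3% that were higher. DNAJA1, which serves HSPA8, was at 260.1, 275 and 258 CPM in parental and 66.7, 80.5 and 73.2 CPM in acute libraries (-1.85 ± 0.10, adjusted p = 1.92e-09). Of the class B proteins 4 of 9 tested were lower and 1 higher; DNAJB1, the partner of HSP70 in disaggregation, was at 132, 128 and 126 CPM and 56.8, 67.5 and 75.7 CPM (-0.95 ± 0.10, adjusted p = 1.44e-06). The DNAJC group, whose members share little beyond the J domain, was mixed, with 12 of 25 lower and 6 higher. Among its lower members, DNAJC9, a histone co-chaperone, went from 136 ± 1.89 to 49.7 ± 2.20 CPM (-1.45 ± 0.09, adjusted p = 9.49e-09).

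Of the small heat shock proteins, which hold unfolded clients without ATP, only HSPB1 had a level above 1 CPM apart from HSPB11, a cilium protein now named IFT25. HSPB1 was at 150.2, 158 and 182 CPM in parental and 39.5, 76.0 and 69.2 CPM in acute libraries (-1.41 ± 0.18, adjusted p = 1.12e-05), with the drug-alone library lowest. HSPB6 passed the filter at 0.11 to 0.43 CPM outside the acute arm and had 0 or 1 count in each acute library, so no fold is given. Among the BAG proteins, BAG2 fell from 90.9, 95.7 and 81.6 CPM to 19.0, 20.4 and 19.3 CPM (-2.19 ± 0.08, adjusted p = 5.38e-11), BAG1 from 105 ± 2.54 to 72.8 ± 10.2 CPM (-0.53 ± 0.09) and BAG4 by 0.73 on the log2 scale. BAG3, a stress-inducible partner of HSPB8 in selective autophagy, overlapped between the arms at 28.0, 27.5 and 31.5 CPM and 28.9, 26.2 and 22.9 CPM and was not called (-0.16 ± 0.32, adjusted p = 0.686).

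The mitochondrial folding machinery fell with the cytosolic one. HSPD1, the barrel of the folding cage, was at 1195, 1262 and 1157 CPM in parental and 169, 279.6 and 245 CPM in acute libraries, 5.21-fold lower (-2.38 ± 0.14, adjusted p = 5.22e-09). HSPE1, its lid, was at 236, 248 and 208 CPM and 25.5, 47.0 and 38.0 CPM, 6.27-fold lower (-2.65 ± 0.17, adjusted p = 1.16e-08). HSPA9, the matrix HSP70 that also pulls proteins through the import channel, was at 621, 626 and 589 CPM and 149, 227 and 216 CPM (-1.63 ± 0.12, adjusted p = 3.35e-08). In each of these 3 genes the drug-alone library was the lowest of all 14. The J-domain partner DNAJA3 fell from 116, 113 and 124 CPM to 53.8, 77.5 and 78.8 CPM (-0.75 ± 0.11, adjusted p = 5.34e-05). DNAJC11, DNAJC15 and DNAJC19, which sit at mitochondrial membranes, fell by 0.82, 0.53 and 0.78 on the log2 scale.

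In the ER, all 7 members counted as targets of the unfolded protein response were lower in the acute arm, with a median of -0.79. The share lower over all genes tested was 30.3%. HSPA5 (BiP), the ER HSP70, was at 469, 475 and 487 CPM in parental and 163, 196 and 165 CPM in acute libraries (-1.45 ± 0.11, adjusted p = 5.92e-08). HSP90B1 (GRP94), the ER HSP90, was at 1112, 1118 and 1023 CPM and 416, 523 and 473 CPM (-1.20 ± 0.10, adjusted p = 1.95e-07). The J-domain partners of BiP fell too, DNAJB11 from 63.3 ± 2.71 to 36.7 ± 5.17 CPM (-0.79 ± 0.13), DNAJC3 from 59.0 ± 2.02 to 35.8 ± 6.10 CPM (-0.72 ± 0.11) and DNAJC10 by 0.59 on the log2 scale. DNAJB9 (ERdj4) was low throughout, at 4.73 to 6.57 CPM in parental and 2.89 to 4.39 CPM in acute libraries, and its call (-0.67 ± 0.23, adjusted p = 0.0188) was lost under 4 alternatives (adjusted p = 0.0521 to 0.0824), among them leaving out acute replicate 1 or 2 or parental replicate 2.

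**Figure D3:**
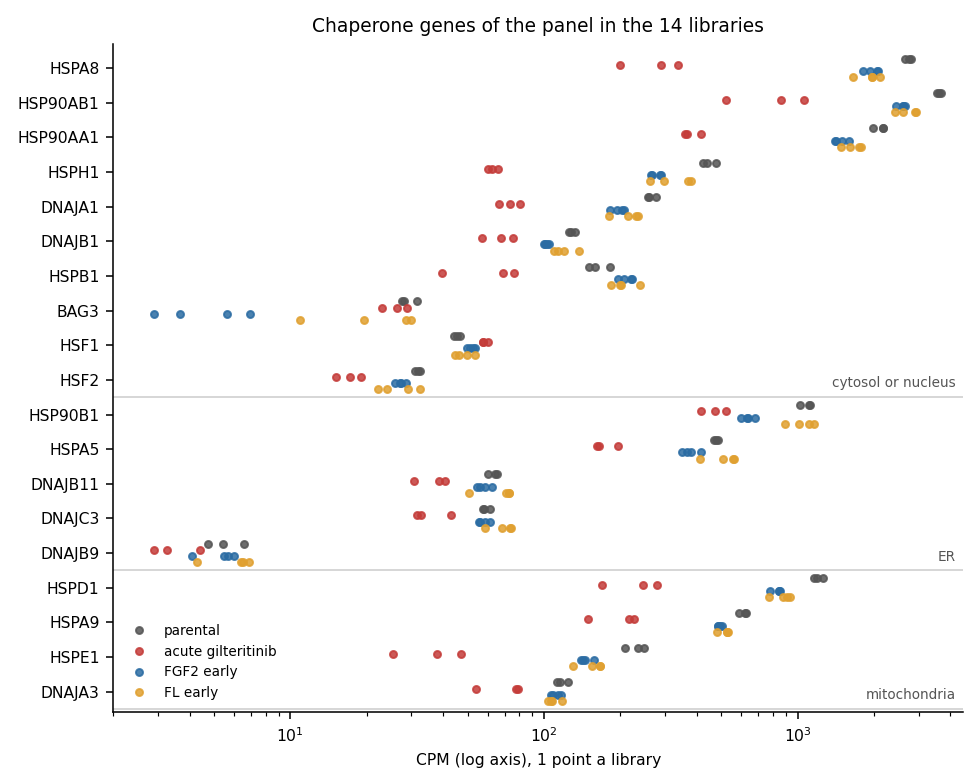
CPM on a log axis of 19 panel members in each of the 14 libraries, 1 point a library, coloured by arm. HSPA8, HSP90AB1, HSP90AA1 and HSPD1 show acute libraries below all others, HSF1 shows them above, and BAG3 is low in the FGF2 early flasks at 2.89 to 6.92 CPM.

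Against this direction, 9 members were higher in the acute arm. HSPA6, a strictly stress-inducible HSP70, was at 4.02, 4.10 and 5.18 CPM in parental and 25.3, 25.9 and 33.2 CPM in acute libraries, 6.34-fold higher (2.66 ± 0.39, adjusted p = 4.02e-05). Its near-identical copy HSPA7 can share reads with it, so the level is uncertain. DNAJB2, a J-domain protein that sends ubiquitinated clients to the proteasome, was at 8.01, 4.28 and 5.22 CPM and 41.6, 35.3 and 34.1 CPM, 6.32-fold higher (2.66 ± 0.22, adjusted p = 1.12e-07). DNAJC4 was at 21.5, 20.3 and 22.6 CPM and 80.2, 80.6 and 69.3 CPM (1.84 ± 0.14, adjusted p = 4.82e-08), and DNAJC16, of the ER membrane, went from 15.5 ± 3.09 to 26.2 ± 2.85 CPM (0.76 ± 0.15, adjusted p = 0.000424). In all 4 genes every acute library lay above every parental one, which the rule that named them required. The others were DNAJC1 (0.25 ± 0.08), DNAJC5 (0.17 ± 0.07, adjusted p = 0.0445), HSF1, and the low-level genes DNAJC28 (1.08 to 1.19 CPM in acute libraries) and DNAJC5B (2.41 to 3.27 CPM).

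The 2 heat shock factors moved in opposite directions. HSF1 was at 46.7, 44.3 and 45.6 CPM in parental and 57.3, 60.0 and 57.6 CPM in acute libraries, 1.28-fold higher (0.36 ± 0.07, adjusted p = 0.000774). HSF2 was at 31.8, 31.0 and 32.3 CPM and 17.2, 19.0 and 15.1 CPM, 1.86-fold lower (-0.89 ± 0.13, adjusted p = 3.03e-05). Transcript levels of HSF1 say nothing of its activity, which is set by binding to chaperones and by modification. Of the 14 members counted as HSF1 targets 13 were tested, and in the acute arm 10 were lower and 1 higher (HSPA6), with a median of -2.14. The shares over all genes tested were 30.3% lower and 32.3% higher. HSPA1B, whose values are unreliable, is among the 13.

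Members with a heat shock element in the window fell in 5 of 7 cases in the acute arm and rose in 1, HSPA6, with a median log2 fold change of -2.14. Those with a window and no match fell in 33 of 52 cases and rose in 5, with a median of -0.73. Of all genes tested, 30.3% were lower and 32.3% higher, and the split of members by element was not tested. HSPH1 and HSPE1, among the furthest fallen, were without a match in these windows. DNAJB6, with a match, stayed at 83.5 to 87.0 CPM in parental and 73.8 to 85.8 CPM in acute libraries and was not called. A match is a description of letters, not of a bound site.

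In the resistant flasks, studied under the same 48 hours of drug, 41 of 65 tested members did not pass the test against parental cells, and abundant ones such as HSPA8 were lower. Averaged over both early lines and set against parental cells, 20 of 65 members were lower and 4 higher, where 16.1% of all genes tested were lower and 13.7% higher. Cytosolic members were lower in 14 of 35 cases (median -0.21), ER members in 2 of 14 (median -0.05) and mitochondrial ones in 3 of 10 (median -0.10), against a median of 0.01 over all genes. Scaled to total counts alone, 18 members were lower and 7 higher. Without parental replicate 1 the counts were 14 and 1, and without parental replicate 2 they were 15 and 2. Shares over all genes under these alternatives are not given.

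The abundant cytosolic members lay between the other 2 arms. HSPA8 was at 1815, 2082, 1933 and 2056 CPM in FGF2 early flasks and 1656, 1969, 2109.6 and 1959.7 CPM in FL early flasks, all below the parental range of 2641 to 2813 CPM. The average was 1.40-fold below parental (-0.49 ± 0.12, adjusted p = 0.00703). HSPH1 was at 265, 290.4, 268 and 286 CPM with FGF2 and 262, 379, 369 and 297 CPM with FL, 1.48-fold below parental (-0.57 ± 0.09, adjusted p = 0.00063). FL early replicates 2 and 3 stood higher than the other 6 flasks here. HSP90AA1 was at 1415, 1594, 1409 and 1495 CPM and 1487, 1739, 1786 and 1613 CPM (-0.43 ± 0.07, adjusted p = 0.000655), and DNAJA1 at 183, 207, 195 and 202 CPM and 179.8, 230.2, 236 and 215 CPM (-0.36 ± 0.08, adjusted p = 0.00399). BAG2 was lower as well, at 69.8 ± 1.44 CPM with FGF2 and 60.3 ± 4.96 CPM with FL against 89.4 ± 7.15 CPM (-0.46 ± 0.07, adjusted p = 0.000241).

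HSP90AB1 was at 2441, 2651, 2599.6 and 2597 CPM in FGF2 early and 2427, 2932, 2909.9 and 2613 CPM in FL early flasks, below every parental library (-0.45 ± 0.14, adjusted p = 0.0296). That call was lost under 5 alternatives (adjusted p = 0.0522 to 0.101), among them leaving out FGF2 early replicate 1 or any 1 of the 3 parental libraries. HSPB1 went the other way without passing the test, at 220.0, 222, 196 and 207 CPM and 199, 184, 201 and 239 CPM against 150.2, 158 and 182 CPM in parental libraries (0.35 ± 0.15, adjusted p = 0.0924). All 8 early flasks lay above all parental libraries for this gene, and it passed under 4 alternatives (adjusted p = 0.00639 to 0.0398), leaving out acute replicate 1 among them. DNAJB1 averaged 102 ± 2.13 CPM with FGF2 and 120.3 ± 12.5 CPM with FL (-0.21 ± 0.08, adjusted p = 0.0604), and passed under 8 alternatives (adjusted p = 0.0224 to 0.0477), leaving out FL early replicate 3 or acute replicate 1 or 3 among them.

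Of the mitochondrial members, HSPD1, HSPE1 and HSPA9 were below parental in the early flasks. HSPD1 was at 778, 856, 844 and 843 CPM with FGF2 and 769, 905, 937 and 873 CPM with FL (-0.50 ± 0.11, adjusted p = 0.00409), and HSPE1 at 139, 157, 142 and 146 CPM and 131, 166, 167 and 155 CPM (-0.62 ± 0.13, adjusted p = 0.00313). No early flask reached the parental range of either gene. HSPA9 was at 492 ± 7.76 CPM and 518 ± 23.4 CPM against 612 ± 20.4 CPM (-0.28 ± 0.09, adjusted p = 0.0387), and this call was lost under 11 alternatives (adjusted p = 0.0503 to 0.138). Among those were leaving out any 1 parental or FGF2 early library, or FL early replicate 1 or 3. DNAJA3 and DNAJC11 did not pass the test in either line.

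Outside these sets, HSPA6 was lower in the early flasks at 1.54, 0.777, 0.758 and 0.600 CPM with FGF2 and 2.53, 3.75, 2.33 and 0.821 CPM with FL, against 4.02, 4.10 and 5.18 CPM in parental libraries (-1.58 ± 0.32, adjusted p = 0.00251). All 8 flasks were below the parental libraries, which the rule that named HSPA6 required. By contrast, the acute level was 25.3 to 33.2 CPM. DNAJC25, an ER J-domain protein, averaged 4.58 ± 0.470 CPM in the FGF2 line, 6.02 ± 1.06 CPM in the FL line and 9.12 ± 1.89 CPM in parental libraries (-0.80 ± 0.15, adjusted p = 0.00178). Its read-through transcript unit DNAJC25-GNG10 shares exons with it and can take its reads. Higher members were DNAJC5, DNAJC5B, DNAJC16 (0.36 ± 0.12, adjusted p = 0.0411) and BAG6, which guides tail-anchored proteins to the ER (0.24 ± 0.07, adjusted p = 0.0172). For DNAJC5 the FGF2 early flasks, at 134 to 152 CPM, overlapped the parental libraries at 134 to 146 CPM. Its FL early flasks lay above both at 170.3 to 191 CPM. For DNAJC16 the FL early flasks, at 15.9 to 21.1 CPM, overlapped the parental libraries at 11.9 to 17.7 CPM. Its FGF2 early flasks lay above the parental ones at 20.1 to 23.3 CPM. BAG6 lies in the major histocompatibility region, where identifiers of alternative sequences can take reads, and its call was lost without parental replicate 1 or without parental replicate 2 (adjusted p = 0.0983 to 0.107).

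Taken one line at a time, 24 members were lower and 4 higher in FGF2 early flasks than in parental cells, where 17.1% of all genes were lower and 13.3% higher. In FL early flasks 12 were lower and 3 higher, where 9.76% were lower and 10.9% higher. Both comparisons share the parental libraries. Scaled to total counts alone, the FL early counts were 10 and 5. Without parental replicate 1 they were 5 lower and 2 higher, without parental replicate 2 they were 4 and 2, and without acute replicate 1 they were 15 and 6. For FGF2 early, 13 were lower without parental replicate 1 and 15 without parental replicate 2, and 2 were higher when any 1 parental library was left out. Without FGF2 early replicate 1, 16 were lower. These alternatives are also without shares over all genes.

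Members called in FL early flasks included HSPA8 (-0.51 ± 0.14, adjusted p = 0.0176), HSPH1 (-0.45 ± 0.11), HSPD1 (-0.47 ± 0.13), HSPE1 (-0.58 ± 0.15), HSP90AA1 (-0.35 ± 0.08) and BAG2 (-0.57 ± 0.07, adjusted p = 0.000246). The matching FGF2 early values were -0.47 ± 0.14, -0.69 ± 0.11, -0.54 ± 0.13, -0.66 ± 0.15, -0.51 ± 0.08 and -0.36 ± 0.07, and these too passed. The FL early calls of HSPA8, HSPD1 and HSPE1 were each lost without parental replicate 1 or 2, and that of HSPH1 without parental replicate 2 (adjusted p = 0.0581). With FL early replicates 2 and 3 only, HSPA8, HSPD1, HSPE1 and HSP90AA1 did not pass either (adjusted p = 0.0646 for HSP90AA1). The FGF2 early call of HSPA8 was lost without FGF2 early replicate 1 or parental replicate 1 or 2. The FL early call of DNAJA1 (-0.30 ± 0.09, adjusted p = 0.0319) was lost under 7 alternatives (adjusted p = 0.0517 to 0.167), among them leaving out any 1 parental library or FL early replicate 1 or 4.

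The 2 early lines were then set against each other directly. Of 65 members 7 were lower and 2 higher in FGF2 early than in FL early flasks, where 9.56% of all genes were lower and 4% higher. The members' median was -0.03 and that of all genes -0.00. Scaled to total counts alone, 6 were lower and 5 higher. Against FL early replicates 2 and 3 only, an alternative added after the data were seen, 14 members were lower and 5 higher. For the alternatives in this paragraph the shares over all genes are not given, so the counts cannot be set against them. Leaving out FL early replicate 4 gave 11 and 6, and leaving out FL early replicate 2 gave 4 and 1. Without FL early replicate 3 or FGF2 early replicate 2, 4 were lower; without FGF2 early replicate 4, 4 were lower and 1 higher; without FGF2 early replicate 1 or 3, 1 was higher.

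BAG3 had the widest of the 9 called differences. It was at 5.61, 3.68, 2.89 and 6.92 CPM in FGF2 early flasks and 19.6, 29.8, 28.6 and 10.9 CPM in FL early flasks, a log2 fold change of -2.21 ± 0.30 (adjusted p = 0.000459). Every FGF2 early flask was below every FL early one, and FL early replicates 2 and 3 were within the parental range of 27.5 to 31.5 CPM. Against parental, the FGF2 early value was -2.59 ± 0.32 (adjusted p = 7.65e-05) and the FL early value -0.38 ± 0.30 (adjusted p = 0.4). HSPA6 was also lower with FGF2 (-1.35 ± 0.38, adjusted p = 0.0306), though FL early replicate 4, at 0.82 CPM, lay within the FGF2 early range.

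Both ER chaperones with an ER stress element in the promoter window were lower with FGF2. HSP90B1 was at 635, 682, 632 and 597 CPM in FGF2 early and 890.3, 1106, 1013 and 1159 CPM in FL early flasks (-0.71 ± 0.09, adjusted p = 0.000239), with no overlap. Against parental cells it was -0.77 ± 0.10 with FGF2 (adjusted p = 7.81e-05) and -0.06 ± 0.10 with FL (adjusted p = 0.713). HSPA5 was at 381, 415, 366 and 349.8 CPM and 414, 559.5, 556 and 508 CPM (-0.43 ± 0.09, adjusted p = 0.00861), where FL early replicate 1 lay within the FGF2 early range. Its FGF2 early call against parental (-0.34 ± 0.10, adjusted p = 0.0224) was lost under 7 alternatives (adjusted p = 0.0513 to 0.0657), which included leaving out any 1 parental library or FGF2 early replicate 1, 3 or 4. The other 5 unfolded protein response targets did not differ by the test; DNAJB11 (-0.21 ± 0.11, adjusted p = 0.252) and DNAJC3 (-0.24 ± 0.10, adjusted p = 0.112) each passed when FL early replicate 1 was left out, and DNAJC3 also without acute replicate 1. The cytosolic HSPH1 differed between the lines by -0.24 ± 0.10 (adjusted p = 0.133) and likewise passed without FL early replicate 1.

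**Figure D4:**
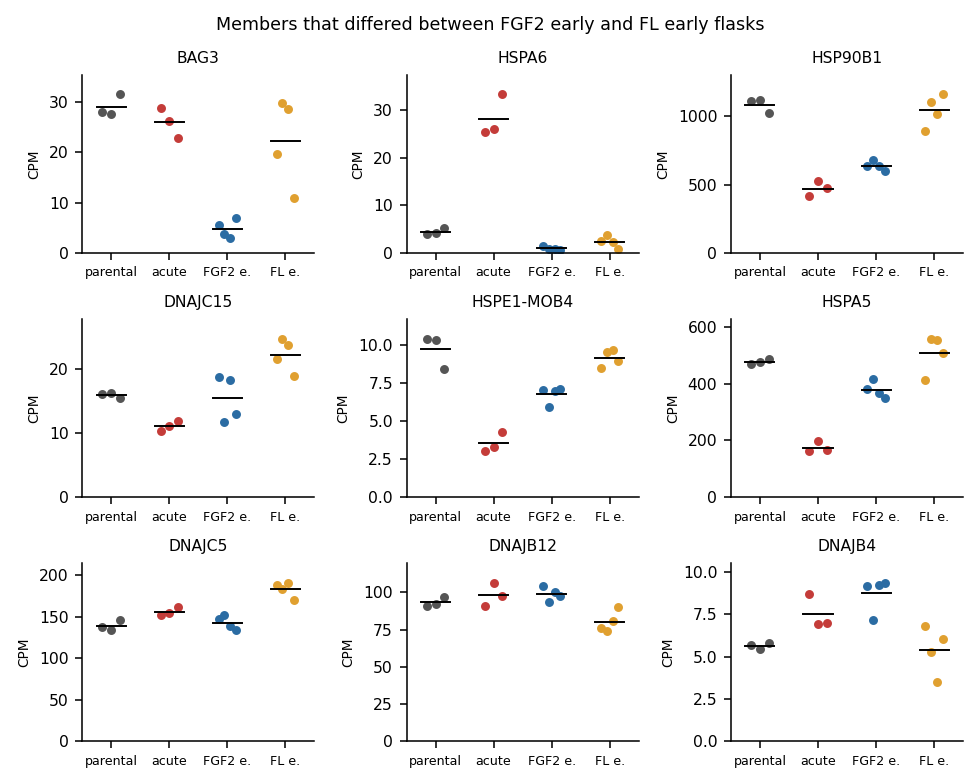
CPM (linear axes from 0, 1 point a library, bars at the mean) of the 9 members that differed between FGF2 early (FGF2 e.) and FL early (FL e.) flasks, in all 4 arms. BAG3 and HSP90B1 do not overlap between the early lines, and HSP90B1 in FL early flasks (890.3 to 1159 CPM) spans the parental range.

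The remaining differences were smaller. DNAJC5, the synaptic vesicle J-domain protein also known as CSPα, was at 147, 152, 139 and 134 CPM with FGF2 and 189, 183, 191 and 170.3 CPM with FL (-0.36 ± 0.06, adjusted p = 0.00131), and the FL early flasks were also above all parental libraries (0.40 ± 0.06, adjusted p = 0.000965). DNAJC15, of the mitochondrial inner membrane, was at 18.7, 11.7, 18.2 and 12.9 CPM and 21.5, 24.7, 23.7 and 18.9 CPM (-0.53 ± 0.14, adjusted p = 0.0268). HSPE1-MOB4, a read-through unit that shares exons with HSPE1, was lower with FGF2 (-0.44 ± 0.13, adjusted p = 0.0404), and DNAJB12, which hands ER membrane proteins to degradation, was higher (0.30 ± 0.07, adjusted p = 0.0145). DNAJB4 was at 9.19, 7.19, 9.23 and 9.38 CPM with FGF2 and 6.84, 5.26, 3.49 and 6.02 CPM with FL (0.70 ± 0.18, adjusted p = 0.0205). All of these flasks separated without overlap, which for the genes other than DNAJC5 the rule that named them required. The DNAJC5 call was not followed under alternatives, and the other calls were not firm. That of DNAJC15 was lost under 5 alternatives (adjusted p = 0.0687 to 0.0849), that of DNAJB4 under 5 alternatives (adjusted p = 0.0521 to 0.0598) and that of HSPE1-MOB4 under 11 alternatives (adjusted p = 0.0561 to 0.111). For DNAJC15 these left out FGF2 early replicate 2 or 4 or FL early replicate 2 or 3, for DNAJB4 FGF2 early replicate 1, 3 or 4 or FL early replicate 2, and for HSPE1-MOB4 any 1 FGF2 early library, FL early replicate 2 or 3 or parental replicate 1 or 2. The DNAJB12 call was lost without FL early replicate 2 (adjusted p = 0.0514).

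Set against the acute arm, the early flasks had 43 of 65 members higher and 10 lower, where 32.1% of all genes were higher and 33.9% lower, with a median of 0.66 against -0.04 over all genes. The acute libraries also serve in the comparison with parental cells. By compartment the counts were 25 higher and 5 lower of 35 cytosolic members, 8 and 2 of 14 ER members and 7 and 2 of 10 mitochondrial members. HSPA8 was higher by 2.82 ± 0.14 on the log2 scale (adjusted p = 8.72e-10), HSPH1 by 2.26 ± 0.11, HSPA4L by 2.21 ± 0.12 and HSP90AA1 by 2.04 ± 0.08. Lower members included HSPA6 (-4.25 ± 0.30), DNAJB2 (-3.08 ± 0.16, adjusted p = 9.08e-10), DNAJC4 (-1.80 ± 0.10), DNAJC1 (-0.33 ± 0.06), HSF1 (-0.22 ± 0.06) and BAG3 (-1.33 ± 0.26). For BAG3 the FGF2 early flasks, at 2.89 to 6.92 CPM, lay below the acute libraries at 22.9 to 28.9 CPM, and the FL early flasks, at 10.9 to 29.8 CPM, overlapped them. DNAJB2 ranged over 3.38 to 4.05 CPM in the FGF2 line and 4.14 to 6.62 CPM in the FL line, all far below its acute level. DNAJC4 ranged over 17.4 to 21.6 and 21.0 to 30.9 CPM in the same order, again below. The HSF1 call was lost under 2 alternatives (adjusted p = 0.0753 to 0.17): with the drug-alone library as the only acute one, and with FL early replicates 2 and 3 only.

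Within the acute arm, each ligand was set against drug alone. With 1 library each there is no replicate check and no test. With FGF2, 9 of 65 members were higher by at least 0.5 on the log2 scale and 2 lower, where 13.6% of all genes were higher and 12.6% lower by that much. With FL the counts were also 9 and 2, where 12.5% and 11.9% of all genes passed. Mitochondrial members made up 5 of the 9 in each case, out of 10 tested, with medians of 0.43 with FGF2 and 0.38 with FL against 0.03 and 0.02 over all genes. For ER members the medians were 0.07 and 0.06 and none passed in either direction. These counts depended on the scaling. Scaled to total counts alone, an alternative added after the data were seen, 5 members were higher and 6 lower with FGF2, and 3 higher and 2 lower with FL. Over all genes, 9.12% were then higher and 19.1% lower with FGF2, and 10.1% and 14.9% with FL. The mitochondrial members that passed were then 2 with FGF2 and 0 with FL, with medians of 0.27 and 0.30 against -0.13 and -0.06 over all genes.

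HSP90AB1 was at 524, 1062 and 861 CPM with drug alone, FGF2 and FL, and HSPB1 at 39.5, 76.0 and 69.2 CPM in the same order. HSPE1 was at 25.5, 47.0 and 38.0 CPM, HSPD1 at 169, 279.6 and 245 CPM and HSPA9 at 149, 227 and 216 CPM. In all 5 genes both ligand libraries were above drug alone and far below the parental level. HSP90AA1, at 360.4, 417 and 367 CPM, and HSPH1, at 60.3, 62.2 and 65.7 CPM, differed by less than 0.5 on the log2 scale. The 2 ligand libraries share the drug-alone library as their reference.

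**Figure D5:**
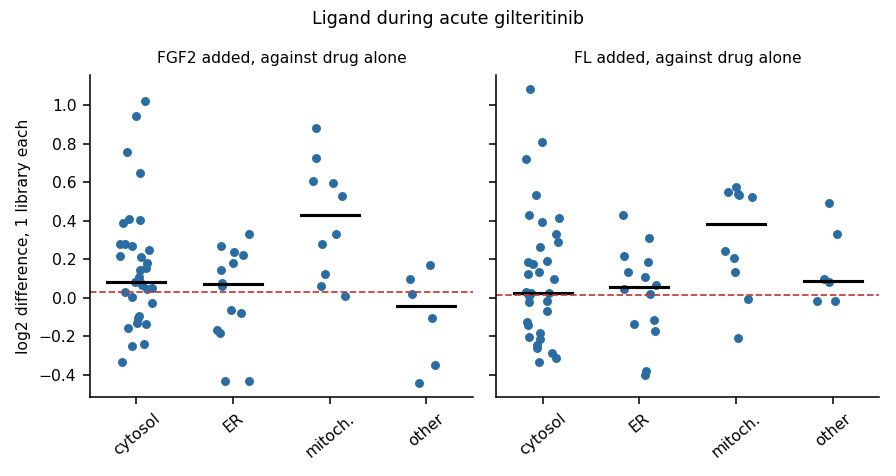
Log2 difference in CPM (vertical axis) between the acute library with ligand and the acute library with drug alone, 1 library each, for tested members by compartment; black bars are medians and dashed lines the median of all genes. Mitochondrial members have medians of 0.43 (FGF2) and 0.38 (FL). HSPA1B and HSPB6 are not drawn but enter the cytosolic medians.

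Other chaperone genes were taken from a list of 39, of which 38 were tested. In it 30 were lower and 3 higher in the acute arm against parental (median -1.21), where 30.3% of all genes were lower and 32.3% higher. In the early flasks 20 were lower and 1 higher (median -0.23), where 16.1% and 13.7% of all genes were. All 8 subunits of TRiC, the cytosolic folding ring for actin and tubulin, were lower in the acute arm (median -1.56) and in the early average (median -0.32), and none differed between the early lines. Against parental cells, all 8 passed in FGF2 early flasks and 4 of 8 in FL early flasks, where 17.1% and 9.76% of all genes were lower. In both lines all 8 lay below every parental library. So did 4130 of all 15756 genes tested in FGF2 early flasks and 2740 in FL early flasks. Of 12 HSP90 co-chaperones 10 were lower and 1 higher in the acute arm; FKBP4 went from 197 ± 4.32 to 44.7 ± 13.4 CPM (-2.14 ± 0.18) and CHORDC1 from 67.1 ± 2.46 to 17.9 ± 0.478 CPM (-1.91 ± 0.09), whereas the myosin chaperone UNC45A rose from 70.0 ± 6.88 to 126 ± 9.35 CPM. Of the prefoldin subunits, which pass clients to TRiC, PFDN5 rose from 148 ± 4.94 to 342 ± 3.72 CPM (1.20 ± 0.08) and the other 4 tested subunits fell.

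In the early flasks TOMM34, a cytosolic helper of mitochondrial import, was lower than in parental cells (-0.58 ± 0.10, adjusted p = 0.000856). GAK, the J-domain kinase that uncoats clathrin vesicles with HSPA8, was at 132 ± 10.1 CPM with FGF2 and 123 ± 21.1 CPM with FL against 88.1 ± 11.8 CPM in parental and 186 ± 18.6 CPM in acute libraries; it passed the test against parental cells in each of the 3 arms. Between the early lines SIL1, the nucleotide exchange factor of HSPA5, was lower with FGF2 at 18.1 ± 1.06 against 27.2 ± 5.70 CPM (-0.59 ± 0.12, adjusted p = 0.00607). PTGES3 (p23), the HSP90 co-chaperone, was lower with FGF2 too (-0.31 ± 0.08, adjusted p = 0.0215), though this call was lost under 4 alternatives (adjusted p = 0.0526 to 0.07), which left out FGF2 early replicate 1, 3 or 4 or FL early replicate 2.

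The 18 members that were not tested were DNAJB7, DNAJB8, DNAJB13, DNAJC5G, DNAJC6, DNAJC12, DNAJC22, HSPA1A, HSPA1L, HSPA2, HSPA12A, HSPA12B, HSPB2, HSPB2-C11orf52, HSPB3, HSPB7, HSPB8 and HSPB9. Of these, 14 stayed under 10 counts in every library and DNAJB8, a testis gene, was at 0 in all 14. The stress-inducible HSP70 genes HSPA1A and HSPA1B, the classical markers of the heat shock response, could not be read here. HSPA1A is listed at 0 in 13 libraries and 0.23 CPM in 1, and HSPA1B ranged over 0 to 5.55 CPM in the early flasks, 0 to 0.675 in parental and 1.13 to 2.52 in acute libraries. It was not called in the acute arm except with only the libraries of the arms compared (adjusted p = 0.042). Both lie in the major histocompatibility region and are near-identical copies of each other, and reads can go to identifiers of alternative sequences that carry no name in the tables used, so no level or direction is given for them.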

How the data were processed

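Stranded poly(A) RNA-seq was done on 14 libraries, per the labels' protocols. The values deposited by the authors are estimated counts for Ensembl genes, made with kallisto on GRCh37 per the submitters' processing notes; the kallisto version and the summing of transcripts are not given in the sources used here. Symbols came from GENCODE 29 or a table of gene names (85.2% of 39293 identifiers named). Counts were rounded, filtered with filterByExpr (minimum count 10, total 15) and scaled by TMM, and 15756 genes were fitted over all 4 arms at once (edgeR 4.0.16, R 4.3.3, robust quasi-likelihood test, Benjamini-Hochberg adjustment over all genes, call at 0.05); adjusted p-values come from this test unless another is named. Early is the mean of both early arms. CPM use TMM library sizes, mean ± SD. Levels per kb use principal GENCODE 29 transcripts.

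The members, compartments and gene lists were chosen with earlier results of these data known. Named genes were a panel of 21, up to 4 members in each direction of a comparison with the largest change among those called without overlap and with mean log2 CPM of at least 1, and up to 2 other chaperone genes likewise, of which 1 is not reported here. Where a gene was named by its change, the lack of overlap in that comparison was a condition and adds nothing to the call. Other genes were named for their role after their values were seen. On simulated counts (15443 genes) the early vs parental fit recovered 67.2% of simulated 1.5-fold changes, 92.5% of 2-fold ones, and 4.42% of its calls were false; recovery at 1.5-fold and 2-fold was 49.3% and 77.6% in the acute vs parental fit (15471 genes), 53.7% and 88.1% between the early lines (15453 genes) and 61.2% and 97.0% in the early vs acute fit (15443 genes). In each simulation 67 genes were changed by 1.5-fold, 67 by 2-fold and 66 by 4-fold, all drawn from genes above a floor of expected counts. Far more genes were called in the data. These rates may therefore not hold for the real comparisons or for members with few counts. Same-numbered libraries were not paired: over 10 pairs the correlation of their deviations ran from -0.0939 to 0.0658. Alternatives changed scaling, filter, test (DESeq2 1.42.0, limma-voom with limma 3.58.1), the libraries fitted and the summing of identifiers that share a symbol. Pairs of libraries within an arm differed by a mean chi-square per gene of 5.4 to 56, so none was taken as a repeat of another. Unnamed identifiers held 4.31% to 5.13% of counts. Figures used matplotlib 3.10.9 in Python 3.11.15.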

Additional observations from a re-analysis of the deposited data

Results flagged for a closer look

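In groups of 4 flasks, a value that lies far from the other 3 for the width of its group is listed here; chance alone gives this in about 1 of 20 groups. In FL early replicate 1, DNAJB11 was at 50.6 CPM, against 50.6 to 72.7 CPM over the 4 flasks, and HSPA9 was at 483 CPM, against 483 to 534 CPM; in both genes it was the lowest flask. In FGF2 early replicate 2, DNAJB4 was at 7.19 CPM, against 7.19 to 9.38 CPM over the 4 flasks, and HSPE1-MOB4 was at 5.94 CPM, against 5.94 to 7.13 CPM, again the lowest.

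For 9 of 65 members the change from parental cells differed between the 2 early lines, by the edgeR test of FGF2 early against FL early itself. Of the members 10.8% were lower and 3.08% higher with FGF2, near the 9.56% and 4% of all genes tested. On the log2 scale, FGF2 early minus FL early was -2.21 for BAG3, -1.35 for HSPA6, -0.71 for HSP90B1, -0.53 for DNAJC15, -0.44 for HSPE1-MOB4, -0.43 for HSPA5 and -0.36 for DNAJC5. It was 0.70 for DNAJB4 and 0.30 for DNAJB12.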

How the results depend on the processing

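Alternatives were followed for values of the panel and of genes named by the rule, and none of the called ones changed direction. Calls of genes named only for their role were not followed. Of 164 gene values tried, 118 kept their call under all of them; over all rows of alternatives, 133 values lost a call and 47 gained one, nearly all in comparisons with the early flasks. Counts of members moved by over 1.5 times in these cases. FGF2 early vs FL early: members higher were 2, but 4 with DESeq2, 1 with only the libraries of the arms compared, 5 scaled to total counts alone and 5 with FL early replicates 2 and 3 only, and members lower were 7, but 14 with those 2 FL flasks. FL early vs parental: higher 3, but 5 scaled to total counts alone, and lower 12, but 6 with those 2 FL flasks. Early vs parental: higher 4, but 7 scaled to total counts alone. Scaling to total counts alone also changed the counts within the acute arm. Members higher by 0.5 log2 went from 9 to 5 with FGF2 and from 9 to 3 with FL. Those lower with FGF2 went from 2 to 6. The mitochondrial ones higher went from 5 to 2 with FGF2 and from 5 to 0 with FL. Over all genes, the share higher went from 13.6% to 9.12% with FGF2 and from 12.5% to 10.1% with FL. The share lower with FGF2 went from 12.6% to 19.1%. Leaving out 1 library at a time gave 1 to 6 members higher and 4 to 11 lower for FGF2 early vs FL early, 2 to 5 and 13 to 25 for FGF2 early vs parental, 2 to 6 and 4 to 15 for FL early vs parental, and 1 to 5 and 14 to 21 for early vs parental. The acute counts held within 8 to 10 and 39 to 43 against parental, and 41 to 44 and 9 to 12 for early vs acute. Except for the scaling within the acute arm, shares over all genes under these alternatives are not given. The counts therefore cannot tell a shift among the members from one over all genes. The cause of these shifts was not tested. The replicate numbers did not pair the libraries; with a replicate block, 19 members were lower and 5 higher for early vs parental, 23 and 4 for FGF2 early, 14 and 4 for FL early, and 6 and 2 for FGF2 early vs FL early. Members with few counts (HSPB6, DNAJC5B, DNAJC28, DNAJA4) are limited by depth.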
